A study of Arabidopsis thaliana with 9 samples.

Results

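HRU1 (AT3G03270) is a universal stress protein gene of Arabidopsis thaliana whose name stands for hypoxia responsive universal stress protein. It was chosen by its signal in these arrays, which differed between the atmospheres, so its own levels are described here without a test. It is 1 of 13333 genes that the platform annotation named on a probe set of their own. AT3G03270 had 1 such probe set of the 22810 on the ATH1 array, and no probe set shared it with another gene. The annotation table of the genome listed 2 transcripts and 2 proteins for HRU1, and a single probe set gives 1 value for whatever mixture of them was present.

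The values came from 9 arrays of roots dissected from seedlings of ecotype Wassilewskija (WS) that were 5 d old when an exposure of 24 h began. Seedlings at 97 kPa stayed at ambient pressure. Those at 50 kPa met low pressure (hypobaria) with the oxygen falling along with the total pressure, and those at 50 kPa/NormOx met the same low pressure with oxygen added back to a partial pressure of 21 kPa. All groups grew on the same sucrose medium in constant light, with carbon dioxide held equal and nitrogen making up the rest of the gas. Each group had 3 arrays, 1 per chamber, and each array held the pooled roots of plants from 1 plate. The comparison of 50 kPa with 97 kPa changes pressure and oxygen together, that of 50 kPa/NormOx with 97 kPa changes pressure at normal oxygen, and that of 50 kPa with 50 kPa/NormOx changes oxygen at equal pressure. Each group enters 2 of these comparisons, which are therefore not independent of each other.

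Universal stress proteins are small proteins with a nucleotide-binding fold that bacteria, archaea and plants make under many kinds of stress. In plants, low oxygen stabilises transcription factors of the ERF group VII, such as RAP2.12, which are otherwise broken down by the oxygen-dependent N-degron pathway, and these factors switch on a core set of hypoxia genes to which HRU1 belongs. The HRU1 protein is known to interact with the GTPase ROP2 and with RBOHD, an NADPH oxidase of the plasma membrane, and has been tied to the control of hydrogen peroxide when oxygen is short.

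The median signal of an array, averaged over the 3 of a group, was 211 ± 4.86 (SD) for 97 kPa, 199.6 ± 3.04 for 50 kPa and 203 ± 2.82 for 50 kPa/NormOx. Across the tested probe sets, pairs of arrays from 1 group had correlations of 0.944 to 0.965 and pairs from different groups 0.935 to 0.960. Within 50 kPa/NormOx the correlations were 0.944 (replicates 1 and 2), 0.947 (1 and 3) and 0.946 (2 and 3). Replicate 2 of that group correlated higher with all 50 kPa arrays, at 0.960, 0.957 and 0.954. Among the 50 kPa arrays, its replicates 1 and 3 did so only with replicate 1, at 0.949 and 0.954. The labelled tissue could be checked against only 1 of the 11 root markers on the list, the root hair expansin EXPA7, whose signal was 266 to 336, 206 to 384 and 201 to 466 in the 3 groups. Genes of green tissue were measured on every array as well, and their levels are given below beside HRU1.

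HRU1 was highest in the roots that met low pressure without added oxygen. Its signal, in linear MAS5 units, was 998, 986 and 969.6 in the 97 kPa arrays. In the 50 kPa arrays it was 2595, 2220.3 and 2039.7. In the 50 kPa/NormOx arrays it was 879.9, 943 and 775. All 3 arrays at 50 kPa lay above all other arrays by a wide margin, and the 50 kPa/NormOx arrays lay just below those at 97 kPa, so that no group overlapped another. The mean of the 50 kPa group was 2285 ± 283 (SD, n = 3), that of the 97 kPa group 985 ± 14.5 and that of the 50 kPa/NormOx group 866 ± 85.1.

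**Figure D1:**
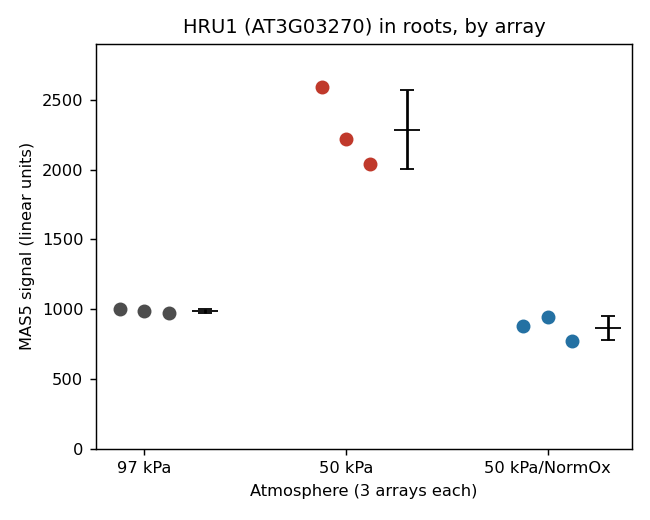
Signal of HRU1 (linear MAS5 units, axis from 0) on each of the 9 arrays, by atmosphere, with the group mean and SD (n = 3) beside the points. The 50 kPa arrays reach 2039.7 to 2595, whereas the 97 kPa and 50 kPa/NormOx arrays all stay between 775 and 998.

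On the log2 scale HRU1 was higher by 1.21 ± 0.14 (SE of the fit) at 50 kPa than at 97 kPa, which is 2.31-fold. Every one of the 9 pairs of a 50 kPa array with a 97 kPa array gave a higher value at 50 kPa, from 2.04-fold to 2.68-fold. Of the 15818 probe sets tested, 16% had groups that did not overlap in this comparison and 6.2% did not overlap with 50 kPa higher. Ordered by log2 difference from the highest down, HRU1 stood at rank 87 of the 15818, and the median log2 difference of all of them was -0.04.

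Against 50 kPa/NormOx, at the same low pressure, the log2 difference of HRU1 was 1.40 ± 0.14, or 2.63-fold, and its rank was 46. Again all 9 array pairs were higher at 50 kPa, from 2.16-fold to 3.35-fold, where 12.5% of all tested probe sets had groups without overlap and 4.8% had such groups with 50 kPa higher. Leaving out 50 kPa/NormOx replicate 1, 2 or 3 gave log2 differences of 1.41, 1.46 and 1.32.

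Between both groups with normal oxygen, HRU1 differed little. It was lower at 50 kPa/NormOx than at 97 kPa by a log2 difference of -0.19 ± 0.14, and 47.9% of all tested probe sets had a difference of smaller size. Without 50 kPa/NormOx replicate 1, 2 or 3 it was -0.20, -0.25 and -0.11. In this comparison 18.5% of all probe sets had groups that did not overlap, 8.2% with 50 kPa/NormOx higher and the rest, as for HRU1, with it lower. For HRU1 the separation depended on the scaling: with array medians set equal, the 97 kPa arrays ran from 914 to 975 and the 50 kPa/NormOx arrays from 788 to 958, with a log2 difference of -0.13. In the order of levels, therefore, 50 kPa stood apart from both other groups beyond their spread, whereas 97 kPa and 50 kPa/NormOx were neighbours whose arrays were separate as deposited and after quantile normalization but overlapped with equal array medians.

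As deposited, the arrays at 97 kPa lay close together for HRU1. Their coefficient of variation was 1.47%, against a median of 14.2% over all tested probe sets, and only 150 of the 15818 (0.948%) had a smaller one. It was 12.4% at 50 kPa (median of all, 15.6%) and 9.83% at 50 kPa/NormOx (median of all, 16.6%). The spread of HRU1 within groups, a residual SD of 0.13 on the log2 scale, was smaller than the median of 0.26 over all tested probe sets. With array medians set equal, the 97 kPa arrays were less close, at 972, 975 and 914. HRU1 was chosen by its signal on these arrays, so its small spread is given as a description only.

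Levels of other tissue and RNA quality moved with the groups in part. Of 9 shoot markers, 5 were on the array list, and their summed signal ran from 5713 to 8028 in the 97 kPa arrays, from 8025 to 13313 in the 50 kPa arrays and from 4674 to 11930 in the 50 kPa/NormOx arrays. Of these 5, the stomatal lineage regulators SPCH and FMA fell below the filter on low signals. The tested ones were RCA, which activates Rubisco, LHCB4.1 of the light-harvesting antenna, and STOMAGEN, a peptide that promotes stomata. Their log2 differences between 50 kPa and 97 kPa were 0.50, 0.46 and 1.24, and those between 50 kPa and 50 kPa/NormOx were 0.27, 0.72 and 0.44. None passed the test, although for LHCB4.1 and STOMAGEN all 50 kPa arrays lay above all 97 kPa arrays. Over all tested probe sets, 0.0948% were called between 50 kPa and 97 kPa and 0.0822% between 50 kPa and 50 kPa/NormOx. Without overlap and with 50 kPa above 97 kPa were 6.2% of them. The correlations of RCA, LHCB4.1 and STOMAGEN with HRU1 over the 9 arrays were 0.34, 0.66 and 0.59. The sums and HRU1 did not run together on every array: 50 kPa/NormOx replicate 2 had a sum of 11930 with HRU1 at 943, whereas 50 kPa replicate 3 had a sum of 8025 with HRU1 at 2039.7. Probe sets of plastid-encoded genes, which were left out of the fit, had their groups in the same order as HRU1. Their median log2 signal ran from 10.77 to 11.14 in the 50 kPa arrays, from 10.66 to 10.92 in the 97 kPa arrays and from 10.24 to 10.53 in the 50 kPa/NormOx arrays, which lay below all the others. For a GAPDH control, the signal of its 3' end over that of its 5' end ran from 5.39 to 6.39 in the 97 kPa arrays, from 4.40 to 5.11 in the 50 kPa arrays and from 4.51 to 5.57 in the 50 kPa/NormOx arrays, and for a ubiquitin control the same ratio ran from 7.41 to 7.81, 6.42 to 7.38 and 7.30 to 7.48. Both were lower at 50 kPa than at 97 kPa without overlap, whereas the other 4 such ratios overlapped. Over the 9 arrays these ran from 32.3 to 108.3 for another GAPDH set and from 61.8 to 115.9 and 47.5 to 82.7 for 2 actin sets. For another ubiquitin set they ran from 4.20 to 6.20. For actin and that GAPDH set, signal of the 3' end was thus far above that of the 5' end on every array. The part of these differences in the HRU1 values was not tested. In pooled tissue, more cells that express a gene and more RNA per cell cannot be told apart.

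HRU1 was then set beside the other genes of the core hypoxia response, a list of 50 genes in which it is itself an entry. Of the other 49, 25 had a probe set naming 1 gene and 22 passed the filter on low signals. Between 50 kPa and 97 kPa, 5 of these 22 rose, 0 fell and 17 did not pass (limma, Benjamini-Hochberg adjusted p under 0.05 over all probe sets), while 0.0948% of all tested probe sets were called, 0.0822% higher and 0.0126% lower. An unadjusted p under 0.05 was reached by 12 of the 22, against 9.38% of all probe sets, and the rule of the study's methods (unadjusted p under 0.01 and at least 2-fold) took 9, against 0.639% of all. The median log2 difference of the 22 was 0.69 and 20 were above 0, against a median of -0.04 over all probe sets. In 12 of the 22, arrays of the groups did not overlap, in each case with 50 kPa higher, where 16% of all tested probe sets had groups without overlap, 6.2% with 50 kPa higher.

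The largest rise was that of AT4G33560, a gene of the wound-responsive protein family. Its signal was 170.3, 246 and 171 at 97 kPa, 1745, 1726 and 2185 at 50 kPa and 378, 185 and 122 at 50 kPa/NormOx. As with HRU1, only the 50 kPa arrays were high, but the log2 difference was larger, 3.28 ± 0.31 against 97 kPa (limma, adjusted p = 0.000161). AT4G27450, which encodes an aluminium-induced protein, had signals of 379, 510.5 and 440.1 at 97 kPa, 1525, 1276 and 2175 at 50 kPa and 562, 295 and 477 at 50 kPa/NormOx. Its rise at 50 kPa over 97 kPa was 1.88 ± 0.24 (limma, adjusted p = 0.00206).

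The other genes of the list that rose were AT1G33055, AT4G10270 and AT5G66985. AT1G33055 had a log2 difference of 3.09 ± 0.49 (limma, adjusted p = 0.0186), with 477, 318 and 1219 at 50 kPa and 105, 33.0 and 86.4 at 97 kPa, where its mean was close to the filter's floor of 66.7. AT4G10270, another gene of the wound-responsive family, rose by 1.89 ± 0.28 (limma, adjusted p = 0.0101). AT5G66985 rose by 1.34 ± 0.23 (limma, adjusted p = 0.0317), the rise nearest in size to the 1.21 of HRU1. The list's count fell to 2 when replicate 2 of 97 kPa or replicate 1 or 3 of 50 kPa was left out and to 3 without replicate 3 of 97 kPa, and AT4G33560 was the only one of the 5 genes that was called under every fit that used an adjusted p. Among the 23 tested core genes HRU1 stood at rank 9 by the size of this difference, and its residual SD of 0.13 was the smallest of the 23, where the median of the others was 0.38. Both places are descriptions, since HRU1 was chosen by its signal on these arrays.

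With oxygen as the variable at equal low pressure, 3 of the 22 core genes were called, in a comparison that uses the same 50 kPa arrays as the one above. AT4G33560 (3.20 ± 0.31, adjusted p = 0.000136), AT1G33055 (2.80 ± 0.49, adjusted p = 0.0456) and AT4G27450 (1.91 ± 0.24, adjusted p = 0.00230) were higher at 50 kPa than at 50 kPa/NormOx in limma. The other 19 did not pass, AT4G10270 with 1.46 ± 0.28 and AT5G66985 with 1.21 ± 0.23, both at an adjusted p of 0.0857. Of all tested probe sets 0.0822% were called in this comparison, 0.0759% higher and 0.00632% lower. There were 13 of the 22 with an unadjusted p under 0.05, against 9.06% of all probe sets, and the rule of the study's methods took 9, against 0.443% of all. The median of the 22 was 0.87, 21 were above 0, and HRU1, at 1.40, stood at rank 8 of 23. The call of AT1G33055 was lost without 97 kPa replicate 3, 50 kPa replicate 1 or 3, or 50 kPa/NormOx replicate 1 or 3. It was also lost without the filter, with array weights and without the variance trend. With the lowest 50% of probe sets left out it was not among the calls, but a gene of such low signal may not have been tested there.

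When oxygen was normal in both groups, 0 of the 22 core genes were called between 50 kPa/NormOx and 97 kPa (limma), where 0.392% of all probe sets were, 0.183% higher and 0.209% lower. An unadjusted p under 0.05 was reached by 2, against 12.7% of all probe sets, and the rule of the study's methods took 0 of them, against 0.898% of all. Their median was -0.03, with 9 above and 13 below 0, beside a median of -0.02 over all probe sets. HRU1, at -0.19, was at rank 18 of 23. The most negative member was AT1G19530 at -1.51 ± 0.53 (limma, adjusted p = 0.243).

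**Figure D2:**
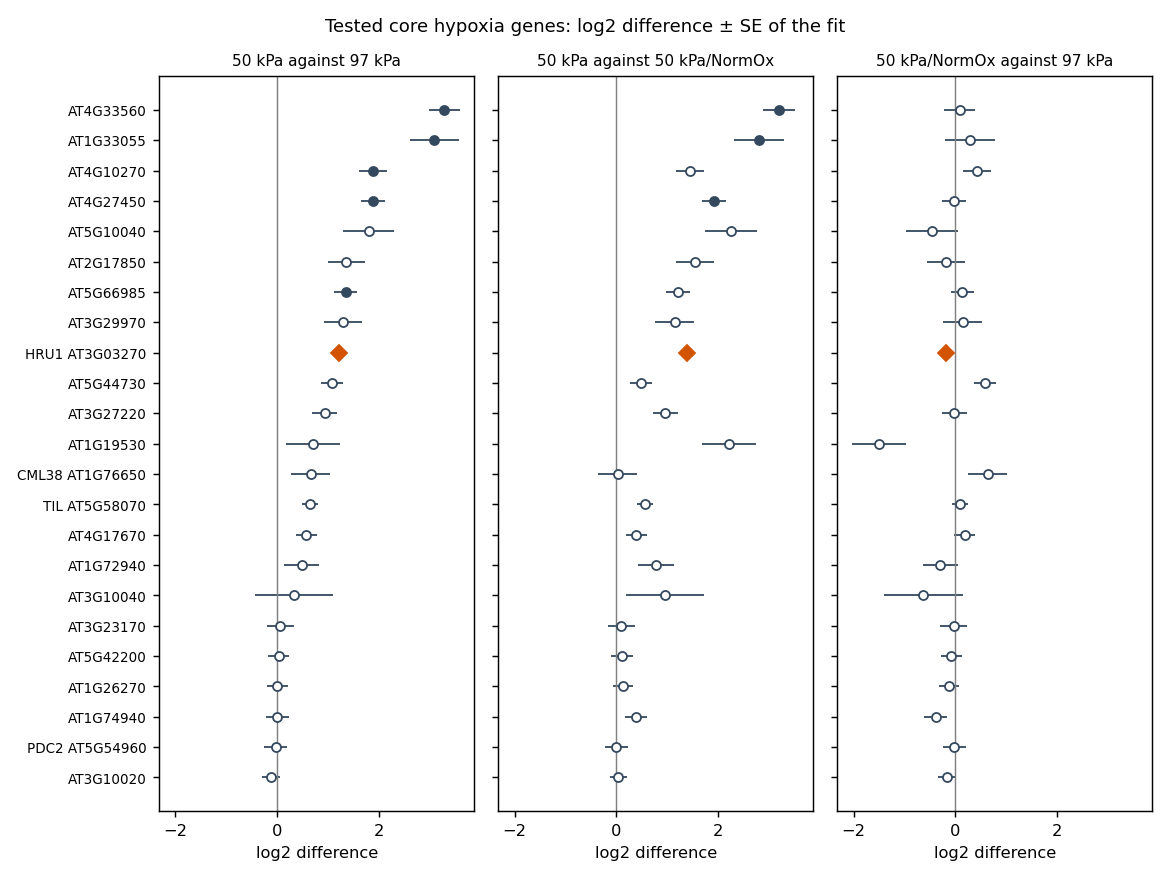
Log2 difference ± SE of the fit for HRU1 (diamond, not tested) and the 22 other tested core hypoxia genes in each comparison, ordered by 50 kPa against 97 kPa. Filled circles were called at an adjusted p under 0.05 (5, 3 and 0 genes in the panels from left to right), and the SE bars of HRU1 (0.14) are mostly covered by its marker.

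Within the 50 kPa group, the array with the highest signal differed between HRU1 and the 5 core genes called against 97 kPa. For each of the 5 core genes called against 97 kPa, replicate 3 had the highest signal of the group, for example 2185 for AT4G33560, 2175 for AT4G27450 and 3562 for AT5G66985. For HRU1 the same array had the lowest of the group, 2039.7, and replicate 1 the highest, 2595. Core genes that were not called went both ways. AT2G17850 (329, 253 and 224 in replicates 1 to 3) and AT5G10040 (333, 216 and 308) were highest in replicate 1, as HRU1 was. AT3G27220 (466, 372 and 501) and AT5G58070 (1670, 1526 and 2217) were highest in replicate 3. Over the 9 arrays, the correlation of deviations from group means with those of HRU1 was -0.52 for AT4G27450, 0.18 for AT4G33560 and 0.45 for AT3G29970, another core gene, where the log2 signals themselves gave 0.90, 0.95 and 0.88. These 9 values share groups, chambers and scaling and are given as a description.

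PDC2, a pyruvate decarboxylase of ethanolic fermentation that is counted in the core list, was among the members that did not share the pattern. The log2 differences of PDC2 at 50 kPa were -0.03 against 97 kPa and -0.00 against 50 kPa/NormOx, and its correlation with HRU1 was -0.12, the lowest of the 22. AT3G10020, AT1G74940 and AT1G26270 were likewise flat against 97 kPa, at -0.12, 0.001 and 0.005. PDC1, another pyruvate decarboxylase gene of the list, was not analysed here. Over those 22 the correlation with HRU1 had a median of 0.64 and reached 0.95.

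HRU1 was next set beside its own protein family. The list of universal stress proteins had 25 further genes, of which 23 had a probe set naming 1 gene and 18 passed the filter on low signals. In limma 0 of the 18 were called in any comparison, while an unadjusted p under 0.05 was reached by 1 when 50 kPa was set against 97 kPa, by 3 when 50 kPa was set against 50 kPa/NormOx and by 4 when 50 kPa/NormOx was set against 97 kPa. Over all tested probe sets the shares called were 0.0948%, 0.0822% and 0.392% in that order, and those at an unadjusted p under 0.05 were 9.38%, 9.06% and 12.7%, so the family's counts were near the background. Their median log2 differences in the same order were -0.06, 0.05 and -0.10, beside -0.04, -0.02 and -0.02 over all tested probe sets. Differences reached at most 0.65, 0.76 and 0.88 in size, where those of HRU1 were 1.21, 1.40 and -0.19. Whether HRU1 differs from its family was not tested, since HRU1 was chosen for its values.

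AT2G47710 had the smallest adjusted p of the family, and its lowest arrays were those with added oxygen. Its signal was 1065, 1063 and 816 at 97 kPa, 923, 1029.9 and 1056 at 50 kPa, and 643, 685 and 556 at 50 kPa/NormOx. The 50 kPa/NormOx arrays were below all others, at a log2 difference of -0.64 ± 0.16 against 97 kPa (limma, adjusted p = 0.0886) and of 0.68 ± 0.16 for 50 kPa against 50 kPa/NormOx (adjusted p = 0.257). 97 kPa and 50 kPa overlapped for this gene, with a difference of 0.04.

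AT3G11930 also had its lowest mean at 50 kPa/NormOx. Its signals were 2925, 2829 and 3909 at 97 kPa, 2112, 2299 and 3115 at 50 kPa and 1256, 1979.8 and 2338 at 50 kPa/NormOx, with a log2 difference of -0.83 ± 0.21 between 50 kPa/NormOx and 97 kPa (limma, adjusted p = 0.102). At 50 kPa its difference from 97 kPa was -0.37, opposite in sign to that of HRU1. AT3G62550 had -0.88 ± 0.28 for 50 kPa/NormOx against 97 kPa (adjusted p = 0.191) and -0.65 ± 0.28 for 50 kPa against 97 kPa (adjusted p = 0.493), and AT1G69080 had -0.51 ± 0.21 and -0.23 ± 0.21 in the same comparisons (adjusted p = 0.304 and 0.773), all in limma.

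AT1G09740 was the family member whose signal followed HRU1 most closely, with a correlation of 0.60 over the 9 arrays. Its log2 differences were 0.38 ± 0.27 against 97 kPa and 0.76 ± 0.27 against 50 kPa/NormOx (limma, adjusted p = 0.703 and 0.453), and its arrays overlapped between groups. The family's correlations with HRU1 had a median of 0.08 and a lowest value of -0.31. Members with a known tie to stress signals did not pass either at 50 kPa against 97 kPa: RD2, named for its response to desiccation, had -0.08, and PHOS34 and PHOS32, which are phosphorylated after elicitor treatment, had 0.45 and -0.36.

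**Figure D3:**
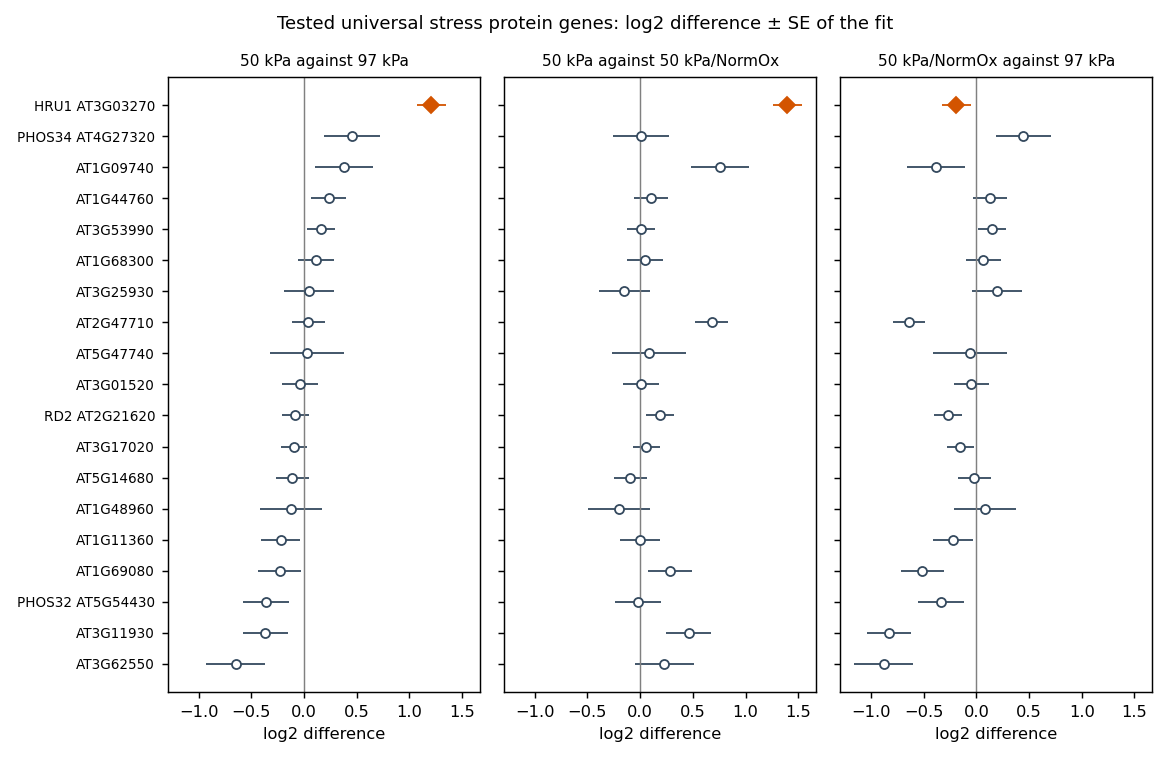
Log2 difference ± SE of the fit for HRU1 (diamond, not tested) and the 18 other tested universal stress protein genes in each comparison, ordered by 50 kPa against 97 kPa. None of the 18 open circles was called, and no family member other than HRU1 exceeds 0.45 at 50 kPa against 97 kPa or 0.76 at 50 kPa against 50 kPa/NormOx.

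One family member, AT3G03290, lies close to HRU1 on its chromosome, the third gene along on one side. The 97 kPa arrays had a mean signal of 38.6 ± 49.8 (SD, n = 3) for it, the 50 kPa arrays 70.0 ± 23.2 and the 50 kPa/NormOx arrays 53.9 ± 8.45, so it fell below the filter. On the other side AT3G03240, likewise the third gene along, had 52.9 ± 8.04, 55.8 ± 18.6 and 46.6 ± 7.96 and fell below the filter too. The genes in between, UGP1 and HDG8 on one side and AT3G03272 and AT3G03280 on the other, were not analysed here.

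The known partners and regulators of HRU1 were hardly covered. RBOHD, ROP2, RAP2.12, RAP2.2 and RAP2.3 were not analysed here. Of the 22 genes for ROP GTPases, their regulators and RBOH oxidases, 4 were measured, namely the ROP GTPase-activating protein AT3G11490 and the oxidase genes AT1G19230, AT4G25090 and AT4G11230, and 0 of them were called in any comparison (limma; 0 at an unadjusted p under 0.05). Over all tested probe sets the shares called were 0.0948% for 50 kPa against 97 kPa, 0.0822% for 50 kPa against 50 kPa/NormOx and 0.392% for 50 kPa/NormOx against 97 kPa. Those at an unadjusted p under 0.05 were 9.38%, 9.06% and 12.7%, so 0 of 4 was near the background. The log2 differences of these 4 genes at 50 kPa against 97 kPa lay between -0.19 and -0.13. For hydrogen peroxide, 1 of 11 listed genes was measured, the zinc finger factor STZ, with 267, 209.5 and 164 at 97 kPa, 319, 299.9 and 317 at 50 kPa and a log2 difference of 0.58 ± 0.22 (limma, adjusted p = 0.434). Of 17 genes of oxygen sensing by the N-degron pathway, 1 was measured, AT3G10040, known as HRA1, a factor that attenuates RAP2.12. Its log2 difference was 0.33 ± 0.77, with arrays that overlapped widely.

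A search over all tested probe sets then asked which genes had the most similar pattern, by the Pearson correlation of log2 signals with HRU1 over the 9 arrays. Of 15817 probe sets, 11 had a correlation of at least 0.9 and 9 one of at most -0.9, the median was -0.06, and the highest was 0.97. Only 3 of the 11 named 1 gene. The other 8 had no listed gene, several genes or none that could be matched, so most of the probe sets most like HRU1 cannot be tied to a single gene here.

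Among probe sets that named 1 gene, the 8 most alike were AT4G33560 (0.95), AT4G23820 of the pectin lyase-like family (0.92), the ankyrin repeat gene AT4G05040 (0.91), AT4G27450 (0.90), the protein phosphatase gene TOPP7 (0.89), the RAP domain gene AT2G31890 (0.88), the B12D family gene AT3G29970 (0.88) and CRR41 (0.88), which acts in the assembly of the chloroplast NADH dehydrogenase-like complex. AT4G33560, AT4G27450 and AT3G29970 are on the core hypoxia list. The likeness lay in the contrast of 50 kPa with the other groups, since correlations of deviations from group means ran only from -0.52 to 0.49 over these 8 genes. Of the 8, AT4G33560 and AT4G27450 were called at 50 kPa against 97 kPa and against 50 kPa/NormOx, and the other 6 were not. Of all tested probe sets, 0.0948% and 0.0822% were called in these comparisons. The 8 were picked by correlation with HRU1 on the same arrays, so a higher level at 50 kPa came with the choice and is no separate result.

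Their sizes differed from that of HRU1. AT4G23820 had signals of 258, 287 and 309 at 97 kPa, 441, 475 and 447 at 50 kPa and 248, 316 and 294 at 50 kPa/NormOx. The 50 kPa arrays were above all others, but the log2 difference against 97 kPa was 0.68 ± 0.18 (limma, adjusted p = 0.239). TOPP7, with 1081, 1084 and 1139 at 97 kPa, 1193, 1275 and 1258 at 50 kPa and 1062, 1132 and 1061 at 50 kPa/NormOx, had the same order of groups over a much narrower range, with a difference of 0.17 ± 0.13 (adjusted p = 0.703).

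The 4 named genes most opposed to HRU1 were CF9 (-0.94), the zinc finger gene AT2G36930 (-0.92), AT1G26090 (-0.90) and AT4G27590 (-0.89). They too were picked on these arrays, so a lower level at 50 kPa came with the choice. None was called in any comparison (limma). Of all tested probe sets, 0.0948% were called for 50 kPa against 97 kPa, 0.0822% for 50 kPa against 50 kPa/NormOx and 0.392% for 50 kPa/NormOx against 97 kPa. AT4G27590 had the largest difference of the 4 at 50 kPa against 97 kPa, -1.01 ± 0.26 (limma, adjusted p = 0.233), with 274, 259.8 and 239 at 97 kPa, 112, 103 and 179 at 50 kPa and 308, 199.7 and 245 at 50 kPa/NormOx. Its 50 kPa arrays were all below the others. AT2G36930 had the narrowest range, with 2615, 2682 and 2622 at 97 kPa and 2387, 2196 and 2255 at 50 kPa.

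**Figure D4:**
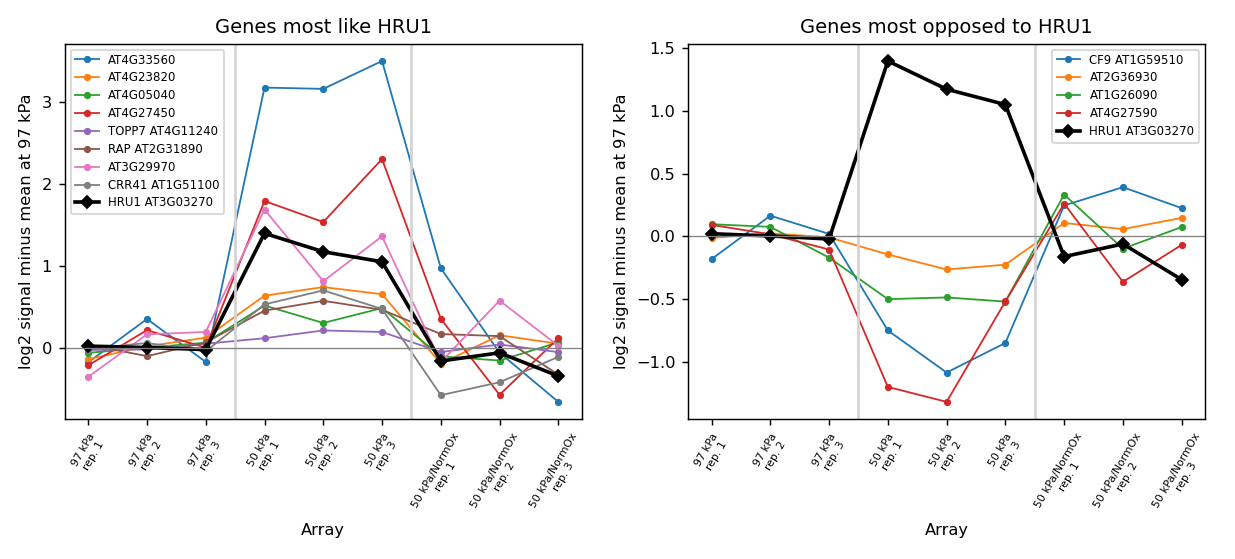
Log2 signal minus the mean at 97 kPa on each of the 9 arrays for HRU1 (black diamonds) and for the 8 named genes most like it (left) and the 4 most opposed to it (right). Lines only tie the points of a gene together, since arrays of a group have no order. All 8 genes on the left have a higher mean at 50 kPa than at 97 kPa, by 0.17 (TOPP7) to 3.28 (AT4G33560). That direction came with their choice by correlation with HRU1 on these arrays.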

How the data were processed

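Labelled cRNA from roots was hybridised to Affymetrix ATH1 arrays. The deposited values were linear signal intensities that the authors made with the MAS5 algorithm in Affymetrix Expression Console, whose version is not given in the sources used here, scaled so that every array had a trimmed mean of 500.1. Such scaling hides any change in total mRNA. No detection calls came with them, and 0 sample columns were left unused. The study's own test used values from another normalization, not used here.

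Groups followed the sample titles, whose replicate number was also used for 1 array where another label gave a different number. That array was 50 kPa replicate 2, whose description gave the same number as that of 50 kPa replicate 3. From the 22810 probe sets, 64 control and 148 organelle probe sets were left out (69 named as plastid genes, 79 assumed from runs of probe numbers), then the 30% with the lowest mean log2 signal (6780, floor 66.7), which left 15818. Genes were named through the platform annotation (13513 probe sets with 1 gene, 13436 of them matched in the TAIR10.1 gene table, 503 with several, 8794 not listed). Log2 signals of all 9 arrays entered a single limma fit (limma 3.58.1, R 4.3.3) with an intensity trend, moderated two-sided tests and Benjamini-Hochberg adjustment over all tested probe sets, with calls at an adjusted p under 0.05. The fit was also run on simulated data with planted changes and independent normal noise of the fitted spread. Its assumptions hold there by construction, so that run cannot show how well it suits the real arrays. Precision is limited by the number of arrays. The p-values rest on the spread between arrays, moderated by that of other probe sets. Each array came from 1 plate of 1 chamber, so chamber, plate and hybridization cannot be told apart in that spread.

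HRU1 and the gene lists were chosen with earlier results of these data known. Named genes were the 8 most and 4 least like HRU1, every called list member, the 5 universal stress proteins with the smallest p, the known partners, and the neighbours of HRU1. RD2, PHOS32, PHOS34, PDC2, AT1G19530, STZ, AT3G10040, the shoot markers and the measured ROP and RBOH genes were named in addition, after their values were seen. Alternatives covered scaling, an offset (log2 of signal plus 32), the filter, the variance model, array weights, the 6 arrays compared alone, a replicate block, organelle probe sets, the methods' threshold and leaving out each array. Coordinates are left out because the array's annotation names no genome build, and the planned promoter search and protein comparison were not run.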

Additional observations from a re-analysis of the deposited data

Results flagged for a closer look

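The hybridization spikes, control transcripts added before hybridization and used in no comparison, had a higher mean signal at 50 kPa/NormOx (18445 ± 3384, SD, n = 3, arrays from 15597 to 22186) than at 97 kPa (14853 ± 514, 14260 to 15156), while at 50 kPa it was 14626 ± 2190. HRU1 was lowest at 50 kPa/NormOx, and the part of the spikes in that was not tested.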

How the results depend on the processing

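The replicate block, the fit of 6 arrays alone and leaving out an array of the third group cannot change a difference of group means in this balanced design. Under the other 3 alternatives and the other omissions HRU1 kept its directions. Against 97 kPa it stayed between 1.18 and 1.29 (1.11 to 1.29 leaving out arrays), against 50 kPa/NormOx between 1.36 and 1.42 (1.30 to 1.48), and 50 kPa/NormOx against 97 kPa between -0.18 and -0.13 (-0.25 to -0.11).

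Counts of calls moved more, and the cause was not tested. For 50 kPa against 97 kPa the 15 calls became 101 under the methods' rule (unadjusted p under 0.01 and at least 2-fold), 27 with equal array medians, 24 with the offset, 6 without the variance trend, 35 with array weights and 62 with only the 6 arrays compared. Leaving out arrays gave 8 to 53: 8 without 97 kPa replicate 2 or 50 kPa replicate 1 or 3, 53 without 50 kPa/NormOx replicate 2 and 25 without its replicate 3. For 50 kPa against 50 kPa/NormOx the 13 became 70 under the methods' rule, 4 without the trend, and 8 (without 50 kPa or 50 kPa/NormOx replicate 3) to 94 (without 50 kPa/NormOx replicate 2). For 50 kPa/NormOx against 97 kPa the 62 became 142 under the methods' rule, 103 with 6 arrays, 121 with array weights and 0 without the trend (2003 at an unadjusted p under 0.05 in the trend fit). Leaving out arrays gave 2 to 104: 15, 11 and 2 without 97 kPa replicates 1, 2 and 3, 2 without 50 kPa/NormOx replicate 3 and 104 without its replicate 2.

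The 5 core hypoxia calls against 97 kPa became 9 under the methods' rule, 3 without the filter, 1 without the trend and 2 to 6 leaving out arrays. The 3 against 50 kPa/NormOx became 9, 1 without the trend, and 2 to 5, the 5 without 50 kPa replicate 2. With array weights 1 universal stress protein, AT2G47710, was called between 50 kPa/NormOx and 97 kPa.

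Same-numbered arrays deviated together at correlations of -0.05 to 0.11, and 4 of 9 arrays correlated best with their own number, so the numbers were not taken to pair samples. The replicate block, under which the HRU1 differences stay at 1.21, -0.19 and 1.40 by construction, gave 30 and 28 calls for 50 kPa against 97 kPa and against 50 kPa/NormOx, 5 core hypoxia calls in the latter, and 1 universal stress protein, AT3G11930, between 50 kPa/NormOx and 97 kPa.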
